A study of Mus musculus with 6 samples.

Results

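Levels of 10 effector and receptor genes of killer lymphocytes were measured by RNA sequencing of mouse tumour monocytes: the granzymes Gzma, Gzmb and Gzmc, perforin (Prf1), the granule protein gene Nkg7, the receptors Ncr1, Klrk1, Klrd1 and Klrb1c, and the transcription factor Eomes. They were picked by symbol as known genes of cytotoxic granules and natural killer (NK) cells, and all 10 were found among the 56980 genes of the deposited table. The cells were CD11b+ Ly6Chi Ly6G- monocytes of WT genotype in both groups, sorted from tumours of the mouse melanoma line B16F10 carrying mCherry. The control group was labelled as treated with LNP-GFP (3 libraries). The other group was labelled LNP-Gsdme (3 libraries), a delivery of mRNA for gasdermin E, which is a pore-forming protein of lytic cell death. The labels name no dose, time after treatment, age or number of mice. They also do not state whether each library is another animal, and the p-values below cover only the spread among the deposited libraries, which may be technical.

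Cytotoxic lymphocytes kill by releasing granules at the contact with a target cell. Perforin opens the target's membrane, and granzymes, a family of serine proteases, enter and cleave proteins inside. NK cells decide to kill from the balance of activating and inhibitory receptors, whereas CD8 T cells use the T cell receptor, and both lineages share the granule proteins and several of the receptors studied here.

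Gzma alone passed the test: it was about 5-fold higher in LNP-Gsdme, and every LNP-Gsdme library stood above every LNP-GFP library. The other 8 genes that could be tested had fitted changes above 0 and did not pass. The control libraries differed widely from each other, with LNP-GFP 1 inside the LNP-Gsdme range for 5 of the 10 genes and LNP-GFP 2 below every LNP-Gsdme library for all 10. T cell markers followed the same order among the controls. The summed NK cell, ILC1 and NKT cell, plasmacytoid dendritic cell and endothelial cell markers shared the order, with smaller differences. LNP-GFP 1 was 1.67-, 1.19-, 1.16- and 1.16-fold above LNP-GFP 2 in these lists, against 2.58-fold for the summed T cell markers. The summed 10 genes stood at 613 CPM in LNP-GFP 1 and 166 CPM in LNP-GFP 2. Cd3g of the T cell receptor complex (7.45 to 29.3 FPKM) was far more abundant per length than Ncr1 (0 to 0.590 FPKM). Other NK cell markers were higher than Ncr1, with Eomes at 0.797 to 1.72 FPKM. Sh2d1b1, which also occurs in myeloid cells, was at 3.65 to 7.46 FPKM. The cell source of the differences was not tested.

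Of the 10 genes, 9 passed the low-count filter, and 1 of these 9 rose and 0 fell (edgeR quasi-likelihood test, Benjamini-Hochberg adjusted p below 0.05 over all 16010 genes tested). Over all genes tested, 6.3% rose and 5.32% fell, so a single call among 9 lies near the general rate. At an unadjusted p below 0.05, 4 of the 9 and 31.5% of all tested genes were counted. The median log2 fold change, LNP-Gsdme over LNP-GFP, was 0.77 over the 9 genes and -0.01 over all genes tested. The groups did not overlap in 5 of the 9 (Gzma, Gzmb, Gzmc, Klrk1 and Klrb1c, all higher in LNP-Gsdme), against 19.6% of all tested genes that were separated in that direction. Without LNP-GFP 3, without LNP-Gsdme 1 or without LNP-Gsdme 2, 0 of the genes rose, and without LNP-GFP 1, 4 rose. Of all genes tested, 0.395, 0.647, 0.721 and 9.96% rose when these 4 libraries were left out in turn. Without LNP-GFP 2, 1 of the genes rose (3.67% of all genes), and without LNP-Gsdme 3, 2 rose (5.63%). Against LNP-GFP 1, LNP-GFP 2 or LNP-GFP 3 alone, 0, 4 and 0 of them rose, beside 0.0477, 5.66 and 0.202% of all genes. Other tools and scalings gave 4 with DESeq2 (10.7% of all genes), 2 with limma-voom (6.6%), 2 with library size only (6.95%), and 1 each with RLE (6.22%) and upper-quartile scaling (5.34%). Without the low-count filter 1 rose (2.52%), with a stricter filter 2 (7.32%) and without robust fitting 2 (6.36%). At an adjusted p below 0.1, 3 rose (11.4%), and below 0.01, 0 rose (0.818%).

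Libraries held 15991826 to 22932095 counts. CPM below are counts scaled to a common library size, with a correction for composition. Values given in threes are libraries 1, 2 and 3 in that order. LNP-GFP 3 lay between LNP-GFP 1 and LNP-GFP 2 in 9 of the 10 genes. Among 654 genes with a mean of at least 5 CPM in the controls and at least a 2-fold difference between LNP-GFP 1 and LNP-GFP 2, LNP-GFP 3 lay between them in 94.3%, at a median of 49.0% of the way from LNP-GFP 2 to LNP-GFP 1. For Gzma, Gzmb, Gzmc, Prf1 and Nkg7 it lay at 53.6, 47.0, 50.5, 52.3 and 45.7% of that way. Picking genes by the difference between LNP-GFP 1 and LNP-GFP 2 itself favours a place between them, and no reference share is given. Because the controls differed widely, the tested genes are also given against single control libraries.

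**Figure D1:**
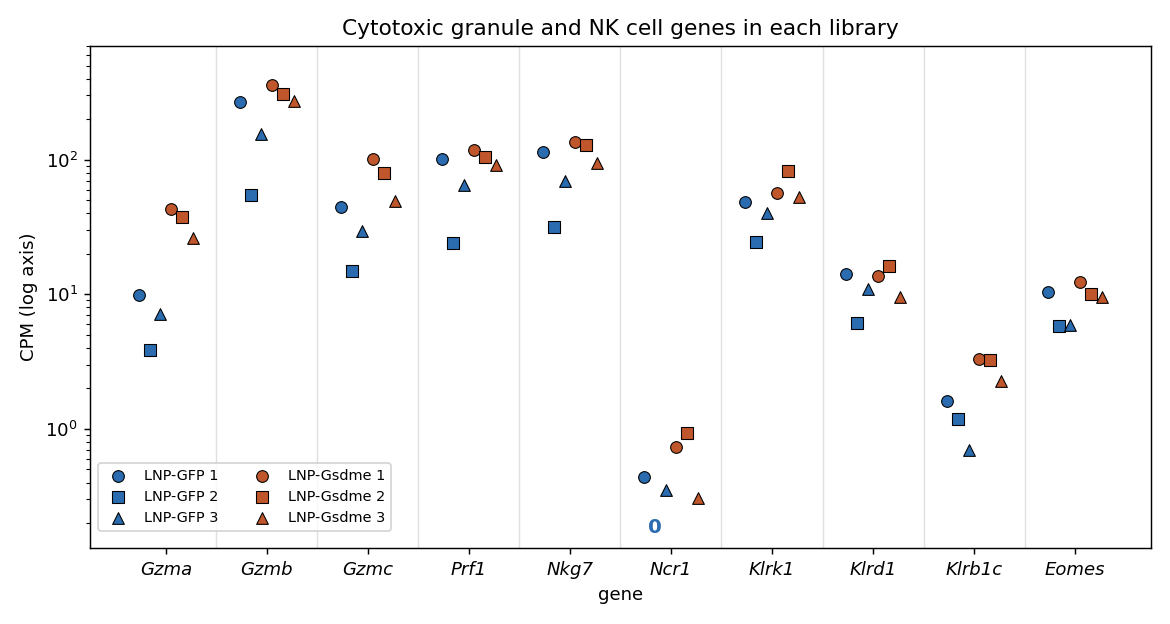
Level of each of the 10 genes in each library, in CPM on a log axis; 1 point is 1 library, blue for LNP-GFP and orange for LNP-Gsdme, and the digit 0 marks a library without a count. Gzma in LNP-Gsdme (26.2 to 42.9 CPM) lies above all controls (3.85 to 9.90 CPM), while LNP-GFP 1 lies among or near the LNP-Gsdme libraries for Prf1, Nkg7, Klrd1 and Eomes.

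The granule effector genes were the most abundant of the set, and their promoters are shown so that the 4 effectors and Nkg7 can be compared by the motifs they hold. The windows below are the 250 bases before the transcription start from RefSeq (build GRCm38.p6, a build other than that of the counts), 5′ to 3′ on the gene's strand, with capitals marking TGTGGT or its reverse complement ACCACA, the core letters bound by RUNX factors.
Gzma (chr13:113100982-113101231, minus strand): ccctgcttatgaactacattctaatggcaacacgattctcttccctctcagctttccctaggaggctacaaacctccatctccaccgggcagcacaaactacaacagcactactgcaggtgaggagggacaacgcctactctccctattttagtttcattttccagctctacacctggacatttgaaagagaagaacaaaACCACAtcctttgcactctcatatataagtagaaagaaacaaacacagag
Gzmb (chr14:56262335-56262584, minus strand): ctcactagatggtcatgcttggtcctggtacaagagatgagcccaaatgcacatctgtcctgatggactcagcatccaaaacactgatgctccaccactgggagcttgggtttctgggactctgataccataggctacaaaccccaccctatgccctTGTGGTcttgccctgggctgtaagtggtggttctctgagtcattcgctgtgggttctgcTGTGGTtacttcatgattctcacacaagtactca
Gzmc (chr14:56234658-56234907, minus strand): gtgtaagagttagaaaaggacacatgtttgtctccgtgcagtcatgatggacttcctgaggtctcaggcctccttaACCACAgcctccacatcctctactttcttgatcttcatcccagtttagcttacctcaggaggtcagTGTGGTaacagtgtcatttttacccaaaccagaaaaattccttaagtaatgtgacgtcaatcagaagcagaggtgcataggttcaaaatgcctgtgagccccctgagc
Prf1 (chr10:61297586-61297835, plus strand): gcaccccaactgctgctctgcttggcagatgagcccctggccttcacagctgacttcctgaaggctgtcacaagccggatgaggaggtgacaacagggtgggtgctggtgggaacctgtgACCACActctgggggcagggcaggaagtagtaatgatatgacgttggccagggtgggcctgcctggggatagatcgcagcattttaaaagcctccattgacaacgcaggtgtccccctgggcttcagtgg
Nkg7 (chr7:43436888-43437137, plus strand): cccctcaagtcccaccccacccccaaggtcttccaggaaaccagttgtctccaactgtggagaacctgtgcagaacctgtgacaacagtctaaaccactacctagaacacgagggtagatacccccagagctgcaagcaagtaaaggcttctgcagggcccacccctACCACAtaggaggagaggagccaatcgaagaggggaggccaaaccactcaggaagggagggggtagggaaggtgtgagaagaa

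RefSeq windows were matched for 9 of the 10 genes (Klrd1 had no entry). The letters TGTGGT occurred on either strand in the windows of 8 of these 9 genes, all but Eomes, against 14.0% of 32851 windows of the same length. Gzmb and Gzmc each held 2 copies and Gzma, Prf1 and Nkg7 held 1 each. The T-box letters AGGTGT, the letters recognised by Eomes and its relative T-bet, occurred for Gzma, Prf1 and Nkg7 (11.8% of all windows). The ETS letters AGGAAG occurred for Gzmc, Prf1, Nkg7 and Klrb1c (29.5%), the AP-1 site TGANTCA for Gzmb (6.75%) and the STAT site TTCNNNGAA for Nkg7 (7.02%). Both strands were searched, and a match describes letters only, not a bound site.

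Gzma encodes granzyme A, a tryptase that cleaves after basic residues (chromosome 13, 113230359 to 113237515, GRCm39). The controls held 9.90, 3.85 and 7.09 CPM, against 42.9, 37.4 and 26.2 CPM with LNP-Gsdme. The lowest LNP-Gsdme library lay above the highest control, and LNP-GFP 2 was the lowest of all. The log2 fold change was 2.35 (95% interval 1.50 to 3.20; edgeR adjusted p = 0.0173), or a 5.10-fold difference. The call was lost without LNP-GFP 3 (edgeR adjusted p = 0.0963), without LNP-Gsdme 1 (0.0731) and without LNP-Gsdme 2 (0.0704). The fitted change was 2.06 to 2.71 on the log2 scale when any 1 library was left out. Against LNP-GFP 1, LNP-GFP 2 or LNP-GFP 3 alone it was 1.85, 3.21 and 2.33 on the log2 scale (edgeR adjusted p = 0.125, 0.0280 and 0.0807), with the lone control assumed to vary like the other libraries.

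Gzmb encodes granzyme B, the protease that cleaves after aspartate and activates caspases (chromosome 14, 56496295 to 56499717). The controls held 268, 54.2 and 155 CPM, against 359, 309.6 and 275 CPM with LNP-Gsdme. The groups did not overlap, but LNP-GFP 1 was 4.95-fold above LNP-GFP 2 and only just below LNP-Gsdme 3. The fitted log2 change was 0.98 (95% interval -0.24 to 2.21) and did not pass (edgeR adjusted p = 0.236). It was 0.24 against LNP-GFP 1 alone and 2.55 against LNP-GFP 2 alone.

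Gzmc, a neighbour of Gzmb in the granzyme cluster (chromosome 14, 56468898 to 56472113), encodes granzyme C, which activated cytotoxic cells make. The controls held 44.2, 14.9 and 29.7 CPM, against 101, 80.0 and 49.0 CPM with LNP-Gsdme. LNP-Gsdme 3 was close to LNP-GFP 1, and the other LNP-Gsdme libraries were well above it. On the log2 scale the difference was 1.37 (95% interval 0.35 to 2.39; edgeR adjusted p = 0.0834), and the gene passed without LNP-GFP 1 (0.0417). The cluster holds close paralogs, so counts of Gzmc may include or lack reads of its neighbours.

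Prf1 encodes perforin (chromosome 10, 61133612 to 61140459). The controls held 101, 24.0 and 64.3 CPM, against 118, 105 and 91.3 CPM with LNP-Gsdme. LNP-GFP 1 lay inside the LNP-Gsdme range, so the groups overlapped. The log2 difference between groups was 0.73 (95% interval -0.37 to 1.84; edgeR adjusted p = 0.316), and it was 0.06 against LNP-GFP 1 alone and 2.14 against LNP-GFP 2 alone.

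Nkg7 encodes a membrane protein of cytotoxic granules needed for their release (chromosome 7, 43086497 to 43087673). The controls held 115, 31.6 and 69.7 CPM, against 136, 129.7 and 94.5 CPM with LNP-Gsdme. The groups overlapped, with LNP-GFP 1 above LNP-Gsdme 3. The log2 fold change was 0.73 (95% interval -0.30 to 1.77; edgeR adjusted p = 0.287).

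**Figure D2:**
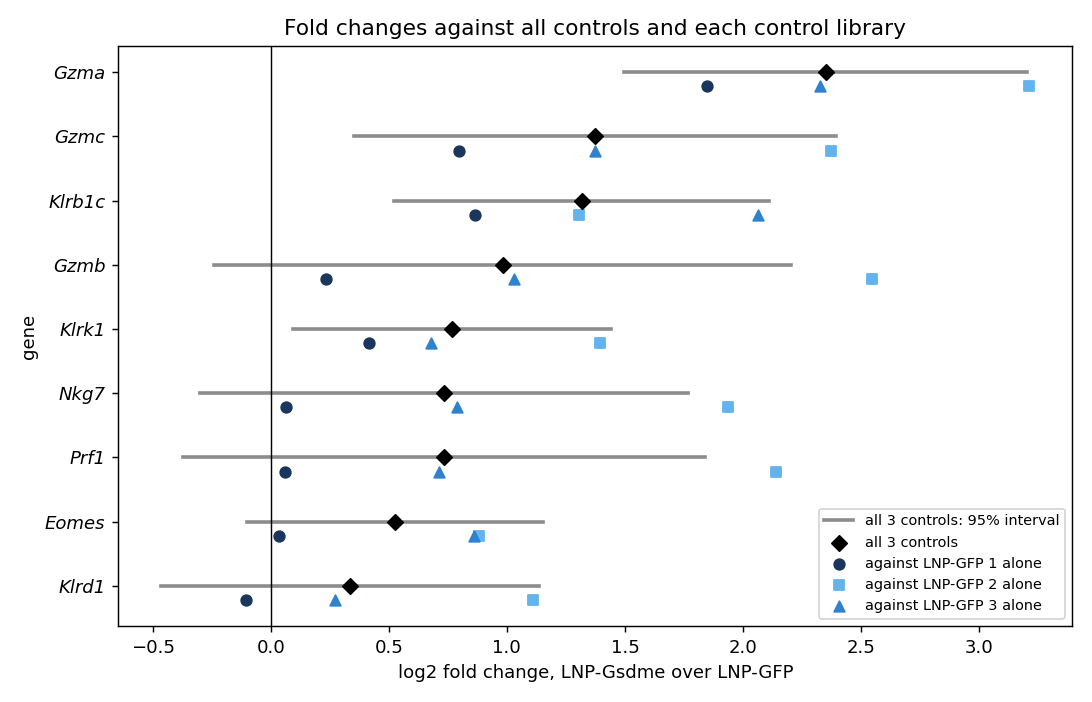
Log2 fold changes of the 9 tested genes, LNP-Gsdme over LNP-GFP; diamonds and grey bars give the fit to all 6 libraries with its 95% interval, and blue symbols give fits with 1 control library. The interval stays above 0 for Gzma, Gzmc, Klrb1c and Klrk1, and against LNP-GFP 1 alone Prf1 (0.06), Nkg7 (0.07), Eomes (0.03) and Klrd1 (-0.11) lie near 0.

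Among the receptors, Klrk1 encodes NKG2D, an activating receptor for stress-induced ligands that NK cells and CD8 T cells carry (chromosome 6, 129587286 to 129600827). The controls held 48.3, 24.5 and 40.3 CPM, against 56.4, 83.0 and 53.2 CPM with LNP-Gsdme. The groups did not overlap, and LNP-Gsdme 2 was the highest library. The fitted log2 change was 0.77 (95% interval 0.09 to 1.44) and did not pass after adjustment (edgeR adjusted p = 0.121).

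Klrd1 encodes CD94, the partner chain of the NKG2 receptors that read the MHC molecule Qa-1 (chromosome 6, 129568745 to 129575738). The controls held 14.2, 6.14 and 10.9 CPM, against 13.8, 16.3 and 9.53 CPM with LNP-Gsdme. The groups overlapped, since LNP-Gsdme 3 lay below LNP-GFP 1 and LNP-GFP 3. On the log2 scale the difference was 0.34 (95% interval -0.46 to 1.14; edgeR adjusted p = 0.518), and against LNP-GFP 1 alone it was -0.11.

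Klrb1c encodes NK1.1, the classical surface marker of mouse NK cells, which also marks NKT cells and some innate lymphoid cells (chromosome 6, 128755448 to 128766178). It had 37, 26 and 14 counts in LNP-GFP 1 to 3 and 59, 52 and 44 counts in LNP-Gsdme 1 to 3. In CPM these are 1.61, 1.19 and 0.699 against 3.31, 3.24 and 2.27. The groups did not overlap, and LNP-GFP 3 was the lowest library here, not LNP-GFP 2. The log2 difference between groups was 1.32 (95% interval 0.52 to 2.11; edgeR adjusted p = 0.0511). The gene passed without LNP-GFP 1 (0.0309) and without LNP-Gsdme 3 (0.0490), and its adjusted p was 0.140 without LNP-GFP 3. Its locus overlaps the gene model Gm44511 in the deposited table, so reads of the pair may have been split or dropped.

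Ncr1 encodes NKp46, the receptor most restricted to NK cells and related innate lymphocytes (chromosome 7, 4340723 to 4348163). It had 10, 0 and 7 counts in LNP-GFP 1 to 3 and 13, 15 and 6 counts in LNP-Gsdme 1 to 3. It did not pass the low-count filter and was not tested in the fit above. Its level was at most 0.936 CPM, and the 0 in LNP-GFP 2 allows up to 0.137 CPM, the worth of 3 counts (counting error only). Without the filter the log2 fold change was 1.28 ± 0.81 (SE; edgeR adjusted p = 0.452), so no difference was detectable at this depth.

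Eomes encodes eomesodermin, a T-box factor of NK cells and effector CD8 T cells (chromosome 9, 118307280 to 118315200). The controls held 10.5, 5.82 and 5.89 CPM, against 12.4, 9.98 and 9.59 CPM with LNP-Gsdme. LNP-GFP 1 lay inside the LNP-Gsdme range. The log2 fold change was 0.53 (95% interval -0.10 to 1.15; edgeR adjusted p = 0.220), and the gene passed without LNP-GFP 1 (0.0247). Tbx21, which encodes the related factor T-bet and was named after its values were seen, was at 11.2, 4.40 and 7.94 CPM among controls and 16.0, 19.4 and 13.5 CPM with LNP-Gsdme (log2 fold change 1.05 ± 0.33 SE, edgeR adjusted p = 0.0868). Runx3, a RUNX factor of cytotoxic lymphocytes that myeloid cells also express, and also named after its values were seen, had a log2 fold change of 0.71 ± 0.27 (SE; edgeR adjusted p = 0.128).

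Against LNP-GFP 1 alone, the log2 fold changes of Gzmc, Klrk1 and Klrb1c were 0.80, 0.41 and 0.87, and those of Nkg7 and Eomes were 0.07 and 0.03. Against LNP-GFP 3 alone, Gzmb, Gzmc, Prf1 and Nkg7 had values of 1.03, 1.37, 0.71 and 0.79, and Klrk1, Klrd1, Klrb1c and Eomes had values of 0.68, 0.27, 2.07 and 0.86. Against LNP-GFP 2 alone, Gzma, Gzmb, Prf1 and Nkg7 passed (edgeR adjusted p = 0.0280, 0.0191, 0.0191 and 0.0308). In that fit Prf1 and Nkg7 had log2 fold changes of 2.14 and 1.93, and Gzma had 3.21.

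Levels of different genes were compared per length, in the deposited FPKM (counts scaled for gene length and library depth). Gzmb was the most abundant in every library, at 36.9 to 247 FPKM. Nkg7 (19.3 to 83.7 FPKM) and Gzmc (16.3 to 112 FPKM) came next and did not differ beyond their spread, with Nkg7 above Gzmc in 4 of 6 libraries. Prf1 (5.27 to 26.3 FPKM) and Gzma (2.85 to 32.1 FPKM) followed, with Prf1 above Gzma in 4 of 6 libraries. The exceptions for Prf1 and Gzma were LNP-Gsdme 1 and 2, where Gzma reached 32.1 and 28.4 FPKM against 26.3 and 23.7 FPKM for Prf1. Klrk1 (2.63 to 9.12 FPKM) stood above Klrd1 (2.16 to 5.87 FPKM) and Klrd1 above Eomes (0.797 to 1.72 FPKM) in 6 of 6 libraries. Klrb1c (0.142 to 0.672 FPKM) and Ncr1 (0 to 0.590 FPKM), the pair most specific for NK cells, were the lowest, and neither was above the other in all libraries.

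Summed over the 10 genes, the controls held 613, 166 and 384 CPM and the LNP-Gsdme libraries 843, 775 and 611 CPM. These sums are 0.0163 to 0.0613% of all counts for the controls and 0.0632 to 0.0833% for LNP-Gsdme. LNP-Gsdme 3 and LNP-GFP 1 were thus alike in the sum, and LNP-GFP 2 was the lowest library. Gzmb made up 32.6 to 45.0% of the sum in every library. Gzma made up 1.61, 2.32 and 1.85% in LNP-GFP 1 to 3 and 5.09, 4.83 and 4.29% in LNP-Gsdme 1 to 3, with no overlap.

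Each gene was then set against the other 9 of the same library, which removes a change that all share. Gzma was higher in LNP-Gsdme by 1.35 on the log2 scale relative to the other 9, with no overlap between the groups (p = 0.1 by a two-sided exact permutation test, which cannot go lower with 3 against 3). Klrd1 and Nkg7 had relative changes of -0.75 and -0.26 on the log2 scale, also without overlap (exact permutation p = 0.1 each). In the other 6 genes the groups overlapped (exact permutation p = 0.2 to 0.7). These are 9 ratios that share their libraries, chosen with the data known, and the smallest Benjamini-Hochberg adjusted exact p was 0.3. The 4 effectors Gzma, Gzmb, Gzmc and Prf1 together stood at 6.56, 3.04 and 4.90 times the sum of the 4 receptors Ncr1, Klrk1, Klrd1 and Klrb1c in LNP-GFP 1 to 3, and at 8.37, 5.15 and 6.76 times in LNP-Gsdme 1 to 3. The groups overlapped in this ratio, which was lowest in LNP-GFP 2, and the mean log2 difference was 0.53 (means 2.20 ± 0.56 and 2.73 ± 0.35, SD, n = 3).

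The sort was meant to hold monocytes, so markers of other cells were read in the same libraries. The 12 T cell markers summed to 609, 236 and 420 CPM among controls and 685, 686 and 529 CPM with LNP-Gsdme, in the same order as the summed 10 genes except that LNP-Gsdme 1 and 2 changed places. Of these 12, 0 passed the test in either direction by edgeR (2 at an unadjusted p below 0.05), and their median log2 fold change was 0.53. Cd8a, a chain of the CD8 coreceptor, had log2 fold changes of 0.77 ± 0.37 and Cd3g, a chain of the T cell receptor complex, of 0.58 ± 0.40 (SE; edgeR adjusted p = 0.205 and 0.356). Cd3g was at 7.45 to 29.3 FPKM and Cd8a at 4.67 to 18.5 FPKM, against 0 to 0.590 FPKM for Ncr1. The NK cell markers of highest level were Sh2d1b1 at 3.65 to 7.46 FPKM and Eomes at 0.797 to 1.72 FPKM. Cd4, named after its values were seen, was at 1.21 to 2.04 FPKM. The 7 NK cell markers outside the 10 genes summed to 32.6, 19.5 and 23.8 CPM among controls. With LNP-Gsdme they summed to 39.6, 41.7 and 34.9 CPM. They include Sh2d1b1, which also occurs in myeloid cells. That gene made up 10.7, 9.76 and 9.39 CPM among controls and 19.0, 18.0 and 18.3 CPM with LNP-Gsdme. Of the rest, Klra4 and Klra8 did not overlap between the groups (both higher in LNP-Gsdme), and Klre1, Klrc2, Klri2 and Txk did. Over all genes tested, 19.6% were separated in that direction. Klra4 had 15, 8 and 7 counts among controls and 17, 25 and 19 with LNP-Gsdme. Klra8 had 24, 9 and 6 against 19, 40 and 23 counts, with LNP-GFP 1 at 1.05 CPM and LNP-Gsdme 1 at 1.07 CPM. No T cell or NK cell marker was at 0 in all libraries. The genes are called NK cell genes here by their known use. The most NK-restricted of them, Ncr1, was near the detection limit. Of the other NK cell markers, Klre1 had 29 to 109 and Klrc2 47 to 111 counts. Which cells held these transcripts was not tested. In bulk RNA, fewer cells of a type and less RNA per cell cannot be told apart, and the part of T cell RNA in the differences was not tested.

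**Figure D3:**
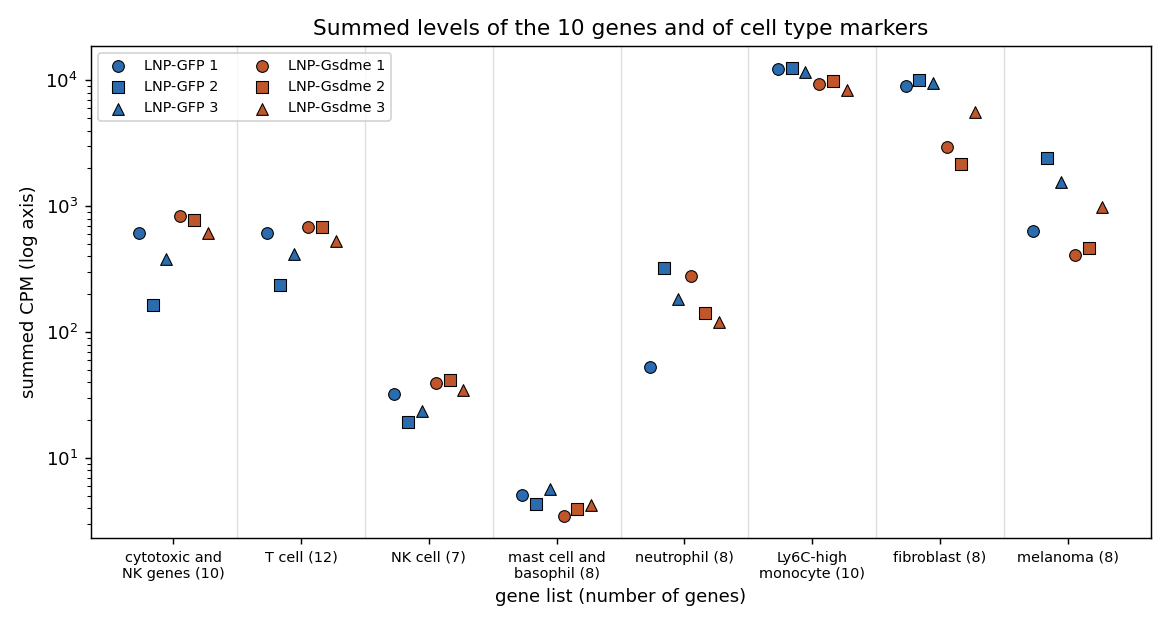
Summed CPM, on a log axis, of the 10 genes and of 7 cell type marker lists in each library, blue for LNP-GFP and orange for LNP-Gsdme; the NK cell list leaves out 3 of the 10 genes. The 10 genes (166 to 843 CPM) and the T cell markers (236 to 686 CPM) are lowest in LNP-GFP 2. The melanoma markers (2442 CPM) and the neutrophil markers (321 CPM) are highest there.

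Relative to the T cell markers of the same library, Gzma was nearly constant in the controls and higher in LNP-Gsdme. Per 100 CPM of summed T cell markers it was at 1.62, 1.63 and 1.69 CPM among controls and 6.27, 5.46 and 4.95 CPM with LNP-Gsdme (difference 1.75 on the log2 scale; exact permutation p = 0.1, the smallest possible). Between LNP-GFP 1 and LNP-GFP 2, Gzma differed 2.57-fold and the T cell marker sum 2.58-fold. Over the 9 tested genes this fold ran from 1.36 (Klrb1c) to 4.95 (Gzmb), with Eomes at 1.80, Nkg7 at 3.64 and Prf1 at 4.22. Gzmc reached 7.25, 6.31 and 7.06 CPM per 100 among controls and 14.7, 11.7 and 9.27 with LNP-Gsdme, again without overlap. Gzmb was separated by a small margin, with 44.0, 23 and 36.8 CPM per 100 among controls and 52.4, 45.1 and 52.0 with LNP-Gsdme (exact permutation p = 0.1 for both genes). For Prf1, Nkg7, Klrk1, Klrd1, Klrb1c and Eomes the groups overlapped on this scale, with differences of -0.29 (Klrd1) to 0.71 (Klrb1c) on the log2 scale. Against the 7 NK cell markers, which include Sh2d1b1, the difference of Gzma was 1.78 on the log2 scale. On that scale Gzma, Gzmc and Klrb1c did not overlap (exact permutation p = 0.1 each). For Gzmc the margin was small, with LNP-GFP 1 at 135 and LNP-Gsdme 3 at 140 CPM per 100, and Klrb1c had 14 to 59 counts. How many of all genes separate on these marker scales was not measured. With 10 ratios for each marker list, the summed genes included, the smallest Benjamini-Hochberg adjusted exact p was 0.25 for the T cell and 0.333 for the NK cell markers.

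**Figure D4:**
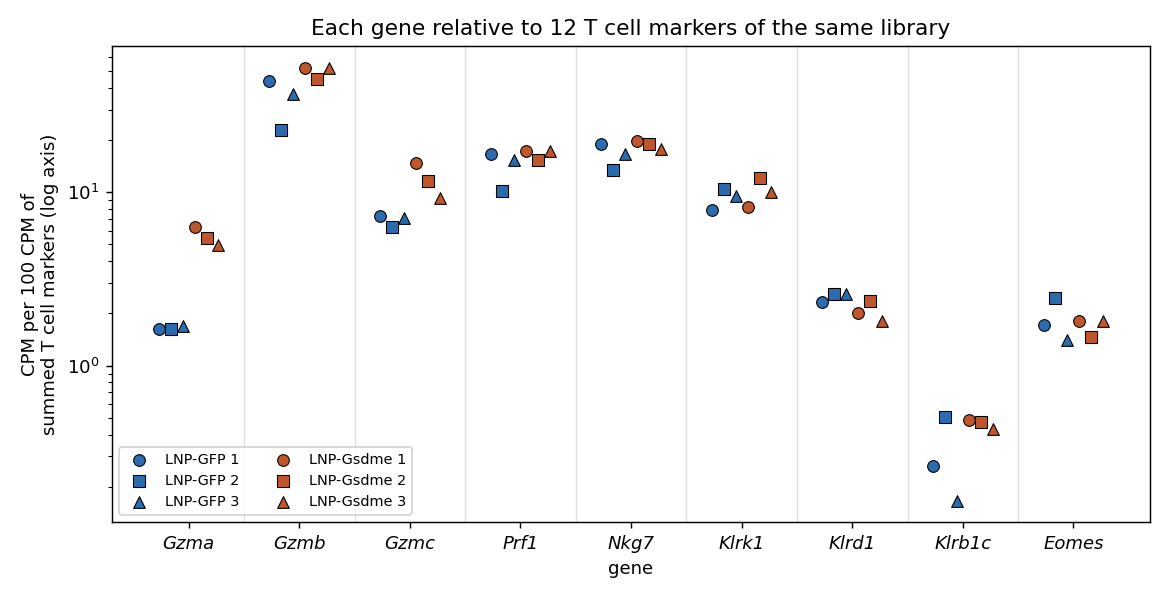
Each gene in CPM per 100 CPM of 12 summed T cell markers of the same library, on a log axis; 1 point is 1 library, blue for LNP-GFP and orange for LNP-Gsdme. The 3 controls coincide for Gzma (1.62 to 1.69) below the LNP-Gsdme libraries (4.95 to 6.27), and the groups overlap for Prf1, Nkg7 and all receptors.

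Not all marker lists of other cells moved like the 10 genes. The summed melanoma markers ran against them among the controls, with 643, 2442 and 1571 CPM, and ranged from 414 to 995 CPM under LNP-Gsdme (0 of 8 passed, median log2 fold change -1.65). Fibroblast markers summed to 9073 to 10131 CPM among controls and 2169 to 5632 CPM with LNP-Gsdme (4 of 8 fell, median -1.44). Ly6C-high monocyte markers summed to 11682 to 12469.5 CPM and 8314 to 9977 CPM (2 of 10 rose and 3 fell, median -0.33). Neutrophil markers also ran against the 10 genes among the controls, with 53.4, 321 and 183 CPM. They ranged from 122 to 282 CPM with LNP-Gsdme (0 of 7 passed, median -0.06). Mast cell and basophil markers, whose cells can hold Gzmb, were at 4.35 to 5.69 and 3.48 to 4.23 CPM (0 of 4 passed, median -0.40). Of the lists for ILC1 and NKT cells, plasmacytoid dendritic cells, conventional dendritic cells, B cells and endothelial cells, 0 of 7, 1 of 7, 1 of 7, 0 of 2 and 0 of 7 rose and 2, 1, 2, 0 and 1 fell, with medians of -0.04, -0.65, -0.69, -0.44 and -0.55. No gene of these lists was at 0 in all libraries, and their part in the results was not tested.

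The wider cytotoxic and NK pathway was read from 9 lists with 97 tested genes, of which 10 rose and 3 fell (13.4%, against 11.6% of all genes tested in either direction). Without LNP-GFP 3, 0 of these 13 calls held, and without LNP-Gsdme 1, LNP-Gsdme 2 or LNP-GFP 2, 1, 2 and 7 held. Against LNP-GFP 1 alone or LNP-GFP 3 alone, 0 held, and against LNP-GFP 2 alone, 9 held. Of the other granzymes, 0 of 6 passed (median 0.46). Gzmf, a close paralog of Gzmc, had the smallest p (log2 fold change 0.64 ± 0.25 SE, edgeR adjusted p = 0.138). Of 13 genes of granule biogenesis and release, 1 rose and 0 fell (median 0.19), namely Stxbp2, which encodes Munc18-2, a regulator of granule fusion (0.56 ± 0.10 SE). Stxbp2 was at 86.1, 78.1 and 93.8 CPM among controls and 135, 128 and 117 CPM with LNP-Gsdme. Of 7 genes for granzyme inhibitors and death ligands, 1 rose and 0 fell (median 0.44). It was Serpina3g, an interferon-inducible serpin that inhibits cathepsins (1.05 ± 0.22 SE).

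Of 19 tested NK receptors outside the 10 genes, 1 rose and 0 fell (median 0.60). Klra7, a Ly49 receptor for MHC class I, rose from 1.40, 0.687 and 0.949 CPM in the controls to 3.09, 2.68 and 2.32 CPM with LNP-Gsdme (log2 fold change 1.41 ± 0.30 SE, edgeR adjusted p = 0.0327). The Ly49 genes are close paralogs, so its counts are uncertain. Of 14 adaptors and signalling genes, Sh2d1b1 and Vav1 rose and Fyn fell (median 0.46). Sh2d1b1 encodes EAT-2, a SLAM receptor adaptor of NK cells that also occurs in myeloid cells, and was at 10.7, 9.76 and 9.39 CPM among controls and 19.0, 18.0 and 18.3 CPM with LNP-Gsdme. Unlike the 10 genes, Sh2d1b1 showed little spread among the controls. It was also the only NK cell marker called (1 of 9, median 0.53). Fyn, a Src-family kinase, had a log2 fold change of -0.38 ± 0.08 (SE).

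Of 12 NK transcription factors, Nfil3 rose and Tcf7 fell (median 0.26). Nfil3, needed for NK cell development and also induced in myeloid cells, changed by 0.83 ± 0.08 on the log2 scale, and Tcf7, which encodes TCF-1 of naive and stem-like T cells, by -1.26 ± 0.25 (SE; edgeR adjusted p = 0.00584 and 0.0286). Tcf7 was at 5.97, 10.7 and 9.19 CPM among controls and 2.98, 3.93 and 3.87 CPM with LNP-Gsdme. Of 16 cytokine receptors and products, 1 rose and 0 fell (median 0.33), namely Il18rap, a chain of the interleukin-18 receptor (0.50 ± 0.10 SE). Of 5 tested cytokines that act on NK cells, Il18 rose and Il12b, the p40 chain of interleukin-12, fell (median -0.55). Il12b changed by -0.64 ± 0.15 on the log2 scale (SE; edgeR adjusted p = 0.0443).

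The list of NKG2D and CD94 ligands also holds the class I gene H2-D1, and of its 5 tested genes 2 rose and 0 fell (median -0.07). Among the 4 without H2-D1, 1 rose, namely H2-T23. This gene encodes Qa-1, the ligand of CD94 paired with NKG2 chains. It was at 379.9, 237 and 319 CPM among controls and 559.9, 585 and 481 CPM with LNP-Gsdme (log2 fold change 0.80 ± 0.18 SE, edgeR adjusted p = 0.0384). H2-D1, a classical class I gene read by Ly49 receptors, changed by 0.46 ± 0.11 on the log2 scale (SE; edgeR adjusted p = 0.0456). Among the NKG2D ligands, which Klrk1 reads, Raet1d, Raet1e and Ulbp1 did not pass, and H60b and H60c were too low to test. Reads may be shared within the class I and Raet1 families.

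The genes whose pattern over the 6 libraries was most like the mean of the 9 tested genes were Ms4a4b, Dock8, Slc25a42, Tmem86a, Tmem229b and Tbc1d10c. Likeness was the root mean square difference of centred log2 CPM, which ran from 0.072 for Ms4a4b to 0.096 for Tbc1d10c among 14597 genes compared. Of the 9 genes themselves, Nkg7 was the closest to the mean (0.178) and Gzma the farthest (0.652). Ms4a4b, a membrane protein gene of T cells, was at 49.8, 19.1 and 33.4 CPM among controls and 76.2, 84.8 and 57.3 CPM with LNP-Gsdme. Dock8, an activator of the GTPase Cdc42 in leukocytes, stood at 216, 77.4 and 146 CPM and at 295, 297 and 226 CPM in the same order. None of the 6 passed the test by edgeR (adjusted p = 0.0840 to 0.169).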

How the data were processed

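RNA sequencing of 6 libraries was read from 1 table. Per the labels' protocols, RNA was column-purified, treated with DNase and made into paired-end TruSeq libraries. The authors deposited whole-number raw counts and FPKM per gene and library, per the file headers. Per the submitters' processing notes, reads were placed on GRCm39. For aligner, counter, strand setting and annotation, the name or version is not given in the sources used. Without a stated strand setting or rule for reads that match several genes, counts of overlapping genes and of close paralogs are uncertain.

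Counts were fitted over all genes in R 4.3.3 with edgeR 4.0.16 (filterByExpr by group, TMM factors, robust quasi-likelihood test, Benjamini-Hochberg adjustment over 16010 tested genes, threshold 0.05), which was tested on simulated data. Alternatives used DESeq2 1.42.0, limma-voom 3.58.1, other scalings, filters and thresholds, a replicate block, and left-out libraries. Intervals at 95% come from the quasi-likelihood standard error. Ratios within libraries were compared with an exact two-sided permutation test over the 20 assignments. FPKM served only for levels between genes. Groups came from the treatment label and replicate numbers from titles.

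The 10 genes, 9 pathway lists and 12 marker lists (206 of 207 symbols matched) were chosen with earlier results of these data known. The genes named outside the 10 were the 2 called genes with the smallest p of each pathway list (or, in a list without calls, the gene of lowest p), marker genes with the highest level where a result turns on them, and the 6 genes most alike in pattern above a mean log2 CPM of 0. Tbx21, Runx3, Vav1, Cd4, Raet1d, Raet1e, Ulbp1, H60b and H60c were named after their values were seen. The NK cell markers Klra4, Klra8, Klre1, Klrc2, Klri2 and Txk were also named outside these rules.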

Additional observations from a re-analysis of the deposited data

How the results depend on the processing

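Of the 10 genes, the number that rose was 1 in the fit above and 0 fell under every alternative run. It was 4 with DESeq2 (Gzma, Gzmc, Klrb1c and Klrk1), 2 with limma-voom, 2 when scaled by library size only, 2 with a stricter low-count filter, 2 without robust fitting, 0 with a replicate block, 3 at an adjusted p below 0.1 and 0 below 0.01. Against LNP-GFP 1 alone it was 0, and against LNP-GFP 2 alone and LNP-GFP 3 alone, both added after seeing the data, 4 and 0. Leaving out 1 library gave 0 to 4. Over all genes, the 1008 that rose became 1543 with DESeq2, 103 with the replicate block, 8 against LNP-GFP 1 alone, 34 against LNP-GFP 3 alone, 1833 at an adjusted p below 0.1 and 131 below 0.01, and 64 to 1625 without 1 library. The log2 fold change turned negative against LNP-GFP 1 alone for Klrd1 (-0.11) and Cd3g (-0.012). The cause was not tested. The ratio of effectors to receptors is taken within each library, so other scalings, filters and thresholds cannot change it. When 1 library was left out, its difference between the groups was 0.23 to 0.78 on the log2 scale. In LNP-GFP 1 alone the log2 ratio was 2.71, beside a mean of 2.73 with LNP-Gsdme.

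The titles number the libraries 1 to 3 in both groups, and the same-number correlations of deviations were 0.214, -0.237 and 0.031. The numbers were therefore not taken to pair the libraries. With the replicate block the call of Gzma was lost (edgeR adjusted p = 0.0540), and 1 of the 13 calls in the pathway lists held (Nfil3). Low counts kept Ncr1 out of the test.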
